A study of Homo sapiens with 4 samples.

Results

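The aldo-keto reductases are enzymes that use NADPH to reduce aldehydes and ketones to alcohols. In human cells the family handles glucose and lipid aldehydes, retinal, steroid hormones and prostaglandins, and several of its members are known for detoxifying reactive carbonyls in epithelia and in tumours. AKR1B10, a retinal and lipid-aldehyde reductase, is the member that the study of these cells follows as a target of CBX7, a subunit of Polycomb repressive complexes, which silence genes through chromatin. The 10 genes described here were AKR1A1, AKR1B1, AKR1B10, AKR1B15, AKR1C1, AKR1C2, AKR1C3, AKR1C4, AKR1D1 and AKR7A2. They were taken by gene symbol from the 60623 genes of the deposited table, and all 10 were present in it.

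RNA was sequenced from T24 cells, a line established from a human bladder carcinoma and grown in RPMI medium with serum. Control cells (2 libraries) were set beside cells overexpressing full-length CBX7 from a pCDH-3xFLAG vector (2 libraries). Whether the overexpressing cells were a pool or 1 clone, and whether the libraries of a group came from separate cultures, is not given in the sources used here, so p-values measure the spread between these libraries, which may be technical. Each library held between 20800910 and 25135488 expected counts, that is, estimated reads per gene that need not be whole. Levels are given as TPM, the length-scaled transcript abundance deposited by the authors. Differences were tested on the counts, scaled by TMM factors to CPM, counts relative to library size, with edgeR's quasi-likelihood test and Benjamini-Hochberg adjustment over 14862 genes.

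CBX7 itself had 261.4 and 203.3 expected counts in the control libraries and 42852 and 35641 in the CBX7 libraries, so the labels matched the overexpressed gene in all 4. The T24 label was set beside cell markers. The keratins KRT7, KRT8 and KRT18 lay between 853.2 and 1465 TPM and the mesenchymal filament VIM between 2206 and 2757 TPM. KRT19 and EPCAM of the epithelial list were lower, at 6.64 to 17.31 and 0.58 to 1.78 TPM. KRT5 and KRT14 were at 0 in all 4 libraries, CDH1 had 0 to 2 counts, and the 4 uroplakins UPK1A, UPK1B, UPK2 and UPK3A had 0 to 3 counts. Other genes of the same marker lists were present, with CD44 of the basal list at 374.6 to 606.3 TPM and PPARG and FOXA1 of the urothelial list at 22.8 to 25.9 and 6.78 to 9.36 TPM. Of 9 markers of blood, vessel, muscle and liver cells, 6 had at most 3 counts in every library, and their summed level was 0.57 to 0.87 TPM in control and 0.48 to 0.62 TPM in CBX7 libraries. Summed epithelial markers were at 3151 to 3248 TPM in control and 3351 to 3730 TPM in CBX7 libraries, and summed mesenchymal markers at 3338 to 3366 TPM and 2499 to 2603 TPM. In deposited TPM 12.2% of all genes tested were higher and 17.4% lower in CBX7 libraries without overlap. The part of the marker shifts in the values below was not tested.

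Several members are near copies of each other, which bears on how reads were assigned to them. AKR1B1, AKR1B10 and AKR1B15 lie on chromosome 7 of GRCh38 (GENCODE release 29), from 134442350 to 134459284 on the minus strand, from 134527592 to 134541408 on the plus strand and from 134549136 to 134579875 on the plus strand. AKR1C1 (4963253 to 4983283, plus), AKR1C2 (4987400 to 5018031, minus), AKR1C3 (5035354 to 5107686, plus) and AKR1C4 (5195462 to 5218949, plus) form a cluster on chromosome 10. AKR1D1 lies on chromosome 7 (138002324 to 138117986, plus), and AKR1A1 (45550543 to 45570049, plus) and AKR7A2 (19303965 to 19312146, minus) lie on chromosome 1. The deposited table holds no coordinates, so these come from matching its gene identifiers, of which all 10 were found in GENCODE.

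The last 60 coding bases are shown for the AKR1B genes because they hold the site of the siRNA that the study used against AKR1B10. In the AKR1B10 line the capitals mark the 19 bases of that siRNA target, and in the other lines they mark bases that differ from AKR1B10 when the 3 coding ends are laid side by side without gaps. Each stretch is split over 2 coding exons, within chr7:134538998-134541086 for AKR1B10, chr7:134577767-134579546 for AKR1B15 and chr7:134442731-134445257 (minus strand) for AKR1B1 in GRCh38.
AKR1B10: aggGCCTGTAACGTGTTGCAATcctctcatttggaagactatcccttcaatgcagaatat
AKR1B15: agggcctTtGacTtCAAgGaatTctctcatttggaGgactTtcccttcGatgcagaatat
AKR1B1: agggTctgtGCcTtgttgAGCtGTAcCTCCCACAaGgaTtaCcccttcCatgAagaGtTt
AKR1B15 differed from AKR1B10 at 11 of these 60 bases and AKR1B1 at 25, and each differed at 7 bases of the siRNA target. Over the whole coding sequence AKR1B10 was 93.0% identical to AKR1B15 and 77.1% identical to AKR1B1.

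AKR1C1 and AKR1C2 differed at 19 of 969 coding bases, and 10 of the 19 fell in coding bases 103 to 162, the stretch shown because it separates them best. Capitals mark a base that differs from AKR1C1. In GRCh38 the stretch lies at chr10:4965932-4965991 in AKR1C1, chr10:5001604-5001663 (minus strand) in AKR1C2, chr10:5096428-5096487 in AKR1C3 and chr10:5200199-5200258 in AKR1C4, within a coding exon of each.
AKR1C1: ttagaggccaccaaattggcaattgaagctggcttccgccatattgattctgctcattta
AKR1C2: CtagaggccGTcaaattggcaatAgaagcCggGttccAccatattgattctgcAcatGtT
AKR1C3: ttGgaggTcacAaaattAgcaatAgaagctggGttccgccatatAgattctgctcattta
AKR1C4: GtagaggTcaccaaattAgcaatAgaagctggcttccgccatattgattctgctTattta
Here AKR1C3 differed from AKR1C1 at 7 bases and AKR1C4 at 5. Over all 969 coding bases they differed at 83 and 111.

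Cutting each coding sequence into overlapping windows showed how much of it could not be told from another gene. For AKR1C1, 54.4% of 50-base windows and 20.7% of 100-base windows also occurred in a transcript of another gene, and for AKR1C2 the shares were 57.1% and 26.4%. AKR1B10 shared 28.5% of its 50-base windows and 3.53% of its 100-base windows, with AKR1B15 and the pseudogene AKR1B10P1. AKR1B1 shared 7.23% of 50-base windows, all with its own pseudogenes, and none of 100 bases. AKR1A1 shared none of either length. The split of reads between AKR1C1 and AKR1C2 is uncertain in this respect.

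**Figure D1:**
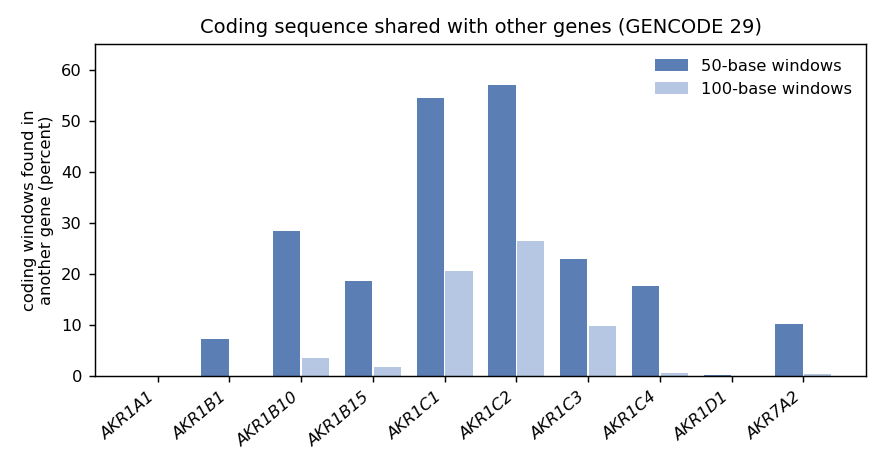
Percent of the overlapping 50-base (dark bars) and 100-base (light bars) windows of each member's coding sequence, on the y axis, that also occur in a GENCODE 29 transcript of another gene. AKR1C2 and AKR1C1 stand highest at 57.1% and 54.4% of 50-base windows, and AKR1A1 has no shared window.

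AKR1B1, or aldose reductase, carried most of the aldo-keto reductase message of T24 cells. This enzyme turns glucose into sorbitol in the first step of the polyol pathway. AKR1B1 stood at 366.3 and 354.5 TPM in the control libraries and at 311.4 and 310.1 TPM in the CBX7 libraries, which placed it between the 343rd and the 423rd gene by level in each library. It made up 74.2% ± 0.296 of the summed TPM of the 10 members in control cells and 72.3% ± 1.46 in CBX7 cells (SD, n = 2 libraries each). The share was 76.0% in control cells when TPM was recomputed from the deposited counts and gene lengths.

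AKR1A1 and AKR7A2 came next. AKR1A1, the widely expressed aldehyde reductase, stood at 65.7 and 62.2 TPM in control and at 65.8 and 58.5 TPM in CBX7 libraries, or 13.2% ± 0.256 and 14.4% ± 0.861 of the family (SD, n = 2). AKR7A2, which reduces succinic semialdehyde and aflatoxin dialdehyde, stood at 36.5 and 37.1 TPM in control and at 41.1 and 33.5 TPM in CBX7 libraries, or 7.58% ± 0.225 and 8.66% ± 1.04 of the family. The levels of AKR1B1, AKR1A1 and AKR7A2 did not overlap between genes over the 4 libraries.

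The steroid-metabolizing AKR1C enzymes were present at low levels through 2 of 4 genes. AKR1C1, which inactivates progesterone, stood at 13.3 and 15.6 TPM in control and at 12.9 and 11.1 TPM in CBX7 libraries. AKR1C3, which makes testosterone and prostaglandin F, stood at 9.60 and 9.05 TPM in control and at 6.01 and 9.50 TPM in CBX7 libraries. On this scale every AKR1C1 value lay above every AKR1C3 value, but the order depended on the length used. The table lists 6543 bases for AKR1C1 and 972 for AKR1C3, and with those lengths AKR1C1 made up 0.447% of the family in control cells and AKR1C3 2.58%, against 2.98% and 1.92% from the deposited TPM. One TPM corresponded to 14.5 counts of AKR1C1 and 18.6 counts of AKR1B1 in control replicate 1, although the listed length of AKR1B1 is 1361 bases, so the deposited TPM of AKR1C1 was not made with its listed length. Their expected counts, which do not use a length, were 192.3 and 159.3 for AKR1C1 and 168 and 133.7 for AKR1C3 in control libraries.

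**Figure D2:**
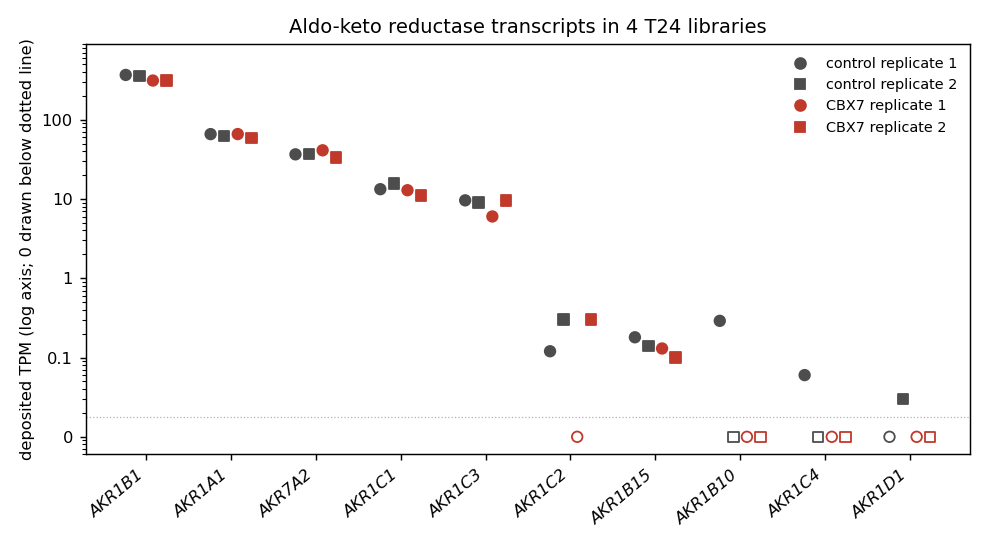
Deposited TPM (y axis, log scale, with values of 0 drawn as open symbols below the dotted line) of the 10 members in each of 2 control (grey) and 2 CBX7 (red) libraries, circles for replicate 1 and squares for replicate 2. AKR1B1 stands above 310 TPM in every library, AKR1A1, AKR7A2, AKR1C1 and AKR1C3 follow between 6.01 and 65.8 TPM, and the other 5 members stay at or below 0.3 TPM.

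The remaining 5 members had at most 6 counts in every library. AKR1B10 had 2 expected counts in control replicate 1, and the other 3 libraries had 0. Its level was 0.29 TPM in the first of these and is listed at 0 in the others. Over both control libraries the 2 counts amount to 0.0450 CPM of the summed totals, with an exact two-sided Poisson 95% interval of 0.00545 to 0.163. Where no count was seen, a one-sided 95% limit leaves up to 3 counts possible, or 0.143 CPM in control replicate 2 and 0.124 and 0.134 CPM in CBX7 replicates 1 and 2. The interval and these limits cover counting error only. At this depth a difference in AKR1B10 between the groups was not detectable, and no fold is printed for it. Per kilobase of listed length AKR1B1 was at least 2236-fold, 2785-fold and 1991-fold higher than AKR1B10 in control replicate 2, CBX7 replicate 1 and CBX7 replicate 2, with AKR1B10 set to 3 counts in each library.

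AKR1B15, whose product is the closest relative of AKR1B10, had 6 and 4 counts in control and 5 and 3 in CBX7 libraries, which are 0.18, 0.14, 0.13 and 0.10 TPM. The control and CBX7 counts overlapped. AKR1B10 and AKR1B15 together had 8 and 4 counts in control and 5 and 3 in CBX7 libraries, so moving every shared read to AKR1B10 would leave it at no more than 8 counts. Reads that were dropped before counting because they fit several genes, if there were any, are not seen here. Their TPM values are not on a common footing either. In control replicate 1 a TPM of AKR1B10 corresponded to 6.90 counts and a TPM of AKR1B15 to 33.3 counts, while the listed lengths are 1619 and 1641 bases.

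AKR1C2, which inactivates dihydrotestosterone, had 2.68 and 2 counts in control and 0 and 3.16 in CBX7 libraries. AKR1C4, a hepatic enzyme of bile acid and steroid metabolism, had 1 count in control replicate 1 and none elsewhere, and AKR1D1, the hepatic steroid 5-beta-reductase, had 0.99 in control replicate 2 and none elsewhere. In both groups these genes had at most 3.16 counts per library, near the limit of 3 used above, so no fold is given for any of them. With no filter on low counts the unadjusted p of the 5 low members lay between 0.329 and 0.718 in edgeR's quasi-likelihood test. The sum over AKR1C1 to AKR1C4 does not depend on how counted reads were divided among them. Reads dropped before counting because they fit several genes, if there were any, are missing from it. The summed counts were 364 and 295 in control and 300.0 and 311 in CBX7 libraries, and these unscaled counts overlapped. Scaled to library size the sum was 15.3 and 14.1 CPM in control and 12.4 and 13.9 CPM in CBX7 libraries, and in deposited TPM it was 23.1 and 24.9 against 18.9 and 20.9. On both scales the CBX7 libraries were lower without overlap, as 14.8% of all genes tested were in CPM and 17.4% in TPM, and the sum was not tested.

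The start regions of AKR1C1 and AKR1C2 are as alike as their coding sequences. In the 250 bases before the RefSeq start of each gene (GRCh38.p14), a run of 245 bases was identical. The 84 bases of that run that lie before the first GENCODE base of AKR1C1 are shown for both because the genes differ so much in counts. They are at chr10:4963169-4963252 (plus strand) for AKR1C1 and at chr10:5004024-5004107 (minus strand) for AKR1C2, and neither overlaps an annotated exon of its gene. AKR1C2 has a further annotated start outside this window.
AKR1C1 and AKR1C2: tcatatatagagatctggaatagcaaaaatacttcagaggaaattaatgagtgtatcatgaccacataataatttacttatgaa
Over the 4 libraries AKR1C1 had 159.3 to 192.3 counts and AKR1C2 had 0 to 3.16, with the split of reads between them uncertain, as said above.

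Windows of 250 bases were listed for 8 of the 10 members, with none for AKR1B10 and AKR1B15. AKR1B1, AKR1C3 and AKR7A2 had 2 windows listed, of which 1 was read, at the outermost RefSeq start. CG content was counted in 1 window per member. CG dinucleotides numbered 31 in AKR7A2, 17 in AKR1A1 and 12 in AKR1B1, against a median of 11 over 35097 windows of the same length. The AKR1C1 and AKR1C2 windows held 2 each, those of AKR1C4 and AKR1D1 held 1, and that of AKR1C3 held 0. The letters TGACNNNGC, the core of the element bound by NRF2, occurred 3 times on either strand in the AKR7A2 window and in none of the other 7, while 10.9% of all windows held it. TATAAA occurred once each in AKR1C3 and AKR1C4, while 10.7% of all windows held it on either strand.

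Of the 10 members, 5 passed the filter on low counts, and 0 of these 5 had an adjusted p-value under 0.05 between CBX7 and control cells (edgeR's quasi-likelihood test), where 0.0202% of all 14862 genes tested did. None of the 5 had an unadjusted p under 0.05 in this fit either, against 4.74% of all genes, and DESeq2's Wald test called none. Fits with a length correction or without 1 library, in which some of them were under 0.05, are given with each gene. Their median log2 fold change was -0.10, beside 0.0017 over all genes tested. An exact permutation test (two-sided) of 1 gene cannot go below 0.333 with 2 libraries against 2, so the p-values given here borrow an estimate of spread from all genes.

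In counts AKR1B1 was about level between the groups. Its TMM-normalized level was 284.9 and 268.6 CPM in control and 290.9 and 224.8 CPM in CBX7 libraries, so CBX7 replicate 1 lay above both control libraries and CBX7 replicate 2 below both. The fitted log2 fold change was -0.10 (standard error 0.17, 95% interval from -0.51 to 0.31, adjusted p = 0.951, edgeR). In TPM the same gene was at 360.4 ± 8.38 in control and 310.7 ± 0.940 in CBX7 cells (SD, n = 2 libraries each), and both CBX7 libraries lay below both control libraries, as did those of 17.4% of all genes tested on that scale. A dependence on gene length moved with these values. Across 11077 genes, Spearman's rho between listed length and the log2 ratio of the libraries numbered 1 (CBX7 over control) was -0.62, and for the libraries numbered 2 it was 0.043. Within groups it was -0.49 for control replicate 1 over replicate 2 and -0.70 for CBX7 replicate 1 over replicate 2. Its part in the difference between the scales was not tested beyond the correction that follows. With each library corrected for this trend AKR1B1 had a log2 fold change of -0.23 (standard error 0.073, unadjusted p = 0.0214, adjusted p = 0.548, edgeR). Without that correction, leaving out CBX7 replicate 1 gave -0.30 and leaving out CBX7 replicate 2 gave 0.070, each with a lone CBX7 library.

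AKR1A1 and AKR7A2 were each highest in CBX7 replicate 1 and lowest in CBX7 replicate 2. AKR1A1 was at 46.1 and 45.7 CPM in control and at 56.8 and 39.9 CPM in CBX7 libraries, which gave a log2 fold change of 0.075 (standard error 0.20, 95% interval from -0.42 to 0.57, adjusted p = 0.954, edgeR). AKR7A2 was at 31.3 and 29.5 CPM in control and at 41.0 and 27.3 CPM in CBX7 libraries, which gave 0.17 (standard error 0.22, 95% interval from -0.37 to 0.71, adjusted p = 0.951, edgeR). Both control libraries lay between the CBX7 libraries for each gene. After the length correction the log2 fold changes were -0.058 for AKR1A1 and 0.033 for AKR7A2. Without CBX7 replicate 1 they were -0.20 and -0.15. Without CBX7 replicate 2 they were 0.31 (adjusted p = 0.0240) and 0.43 (adjusted p = 0.00147, edgeR), but that fit, in which the lone CBX7 library is taken to vary like the control libraries, called 35.5% of 15452 genes.

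AKR1A1, AKR1B1 and AKR7A2 have listed lengths of 1360, 1361 and 1362 bases, and their ratios were read within each library. AKR1B1 counts were 6.18 and 5.88 times those of AKR1A1 per kilobase in control libraries and 5.12 and 5.63 times in CBX7 libraries. They were 9.12 and 9.12 times those of AKR7A2 in control and 7.11 and 8.24 times in CBX7 libraries. Both ratios were lower in each CBX7 library than in each control library. They share the AKR1B1 counts, so they are not independent, and how many other gene pairs separate in this way was not counted. These ratios were chosen after the values were seen, and with 2 libraries a group they were not tested.

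**Figure D3:**
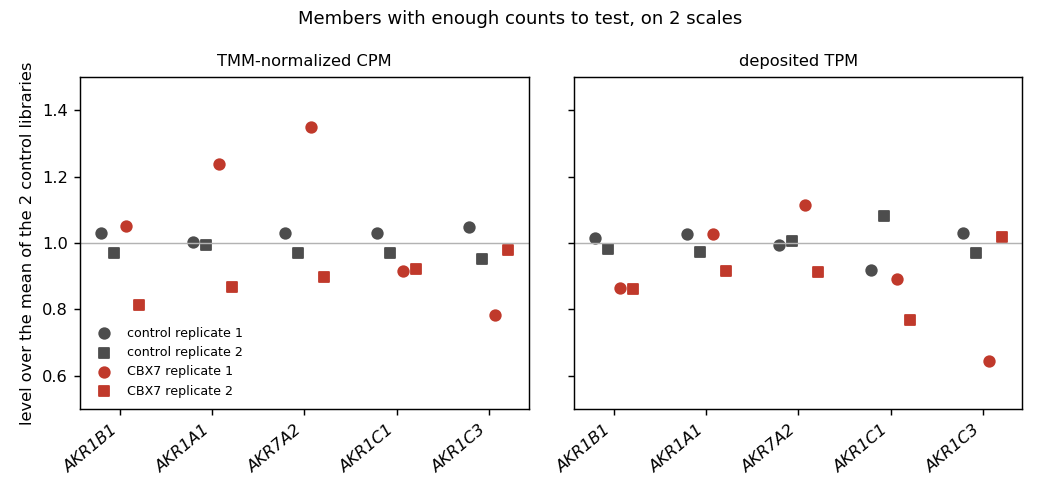
Level of the 5 tested members in each library divided by the mean of the 2 control libraries (y axis), on TMM-normalized CPM (left) and on deposited TPM (right), grey for control, red for CBX7, circles for replicate 1 and squares for replicate 2. AKR1B1 overlaps between the groups on the left (224.8 to 290.9 CPM) and is lower in both CBX7 libraries on the right (310.1 and 311.4 against 354.5 and 366.3 TPM).

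AKR1C1 was at 8.05 and 7.57 CPM in control and at 7.16 and 7.21 CPM in CBX7 libraries. It was the 1 tested member whose groups did not overlap in CPM, with CBX7 lower, a pattern that 14.8% of all genes showed, while 15.4% were higher in both CBX7 libraries. Its log2 fold change was -0.12 (standard error 0.16, 95% interval from -0.53 to 0.29, adjusted p = 0.951, edgeR), and 0.015 after the length correction, which used the listed 6543 bases. AKR1C3 was at 7.04 and 6.38 CPM in control and at 5.26 and 6.58 CPM in CBX7 libraries, so CBX7 replicate 1 was lowest and the groups overlapped. Its log2 fold change was -0.18 (standard error 0.20, 95% interval from -0.68 to 0.32, adjusted p = 0.951, edgeR). It was -0.31 after the length correction, -0.026 without CBX7 replicate 1 and -0.36 without CBX7 replicate 2.

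**Figure D4:**
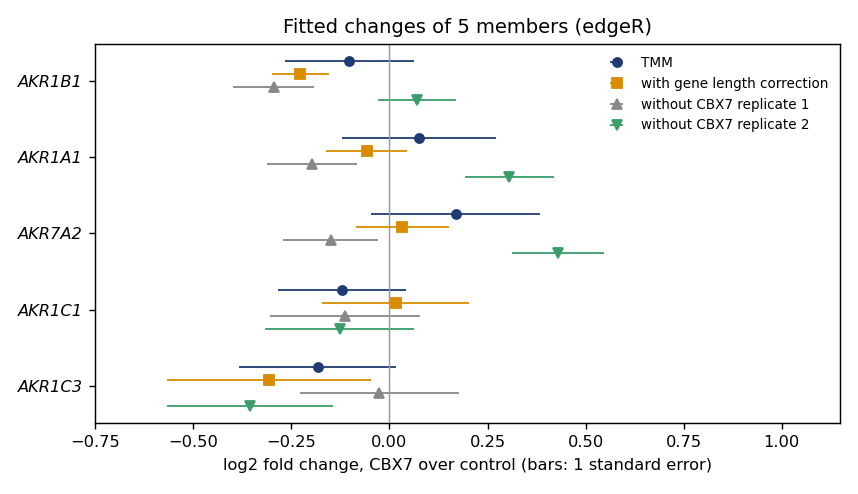
Log2 fold change, CBX7 over control (x axis), of the 5 tested members with bars of 1 standard error, from the edgeR fit on all 4 libraries (blue), with the gene length correction (orange), without CBX7 replicate 1 (grey) and without CBX7 replicate 2 (green). AKR1A1 and AKR7A2 lie on opposite sides of 0 when one or the other CBX7 library is left out (-0.20 and 0.31 for AKR1A1).

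Summed over the 10 members the deposited TPM was 492.1 and 478.8 in control and 437.2 and 423.1 in CBX7 libraries, a ratio of means of 0.886, most of it AKR1B1. In TMM-normalized CPM the same sum was 377.8 and 358.1 in control and 401.2 and 306.0 in CBX7 libraries, a ratio of 0.961, and the groups overlapped. In bulk RNA, fewer expressing cells and less RNA per cell cannot be told apart.

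The genes around the family in metabolism were read from lists of pathway members. Of 21 other aldo-keto reductase rows, pseudogenes and potassium channel beta subunits included, 10 had no count in any library and 3 were tested. KCNAB2, a beta subunit of voltage-gated potassium channels with an aldo-keto reductase fold, had a log2 fold change of 0.18 (adjusted p = 0.951, edgeR). AKR1E2 had no count in any library, and AKR7A3, the closest relative of AKR7A2, had 6 and 3 counts in control and 7 and 6 in CBX7 libraries. These 2 genes were named after their values were seen. None of the lists below had a member past an adjusted p of 0.05 in edgeR's quasi-likelihood test or in DESeq2's Wald test. Before adjustment, 2 of 5 tested genes of the polyol list, 1 of 7 aldehyde dehydrogenases, 1 of 12 steroid or prostaglandin enzymes and 0 in the other 5 lists had a p under 0.05 in edgeR, beside 4.74% of all genes.

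In the polyol and methylglyoxal list, 5 of 6 genes were tested, all 5 had positive log2 fold changes and the median was 0.23, beside 0.0017 over all genes. SORD, which takes the sorbitol made by AKR1B1 on to fructose, had 1112 and 983.3 counts in control and 1327 and 1228 in CBX7 libraries, a log2 fold change of 0.23 (standard error 0.13, adjusted p = 0.951, edgeR). KHK, which phosphorylates fructose, had a log2 fold change of 0.46 (standard error 0.17, adjusted p = 0.951). DCXR, a reductase of xylulose and dicarbonyls, was at 86.5 and 89.7 TPM in control and at 145.0 and 122.3 TPM in CBX7 libraries, a log2 fold change of 0.75 (standard error 0.22, adjusted p = 0.782, edgeR). Of the 5 tested genes 4, DCXR, KHK and SORD among them, were higher in either CBX7 library than in either control library in CPM, as were 15.4% of all genes tested. In deposited TPM SORD was at 20.1 and 19.6 in control and at 18.6 and 24.1 in CBX7 libraries, so its groups overlapped on that scale. With no filter on low counts DCXR passed the threshold (adjusted p = 0.0113, edgeR). That fit called 265 of 26247 genes, where the fit with the filter, which DCXR also passed, called 3 of 14862.

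AKR1B1 is a known target of NFAT5, the transcription factor of the osmotic response. NFAT5 had 1289 and 1649 counts in control and 624.2 and 1903 in CBX7 libraries, so its highest and lowest values were both in CBX7 cells, and its log2 fold change was -0.26 (standard error 0.54). In that list 5 of 6 genes were tested, with a median of -0.25, and SLC5A3, the myo-inositol transporter, had -0.28 (standard error 0.35). SLC5A3 was at 110.5 and 138.5 CPM in control and at 66.3 and 139.2 CPM in CBX7 libraries. In 4 of the 5, NFAT5 and SLC5A3 among them, CBX7 replicate 1 was below and CBX7 replicate 2 above both control libraries in CPM. That order held for 2244 of all 14862 genes tested. The listed lengths of NFAT5 and SLC5A3 are 13289 and 11566 bases, and the part of the length trend in these values was not tested. Several aldo-keto reductases are also known targets of NRF2, the oxidative stress factor encoded by NFE2L2 and held in check by KEAP1. All 13 genes of that list were tested, 6 with positive and 7 with negative log2 fold changes and a median of -0.017. NFE2L2 was at 64.2 and 66.4 TPM in control and at 55.9 and 65.1 TPM in CBX7 libraries (log2 fold change -0.017, standard error 0.13), and KEAP1 had 0.12 (standard error 0.18). OSGIN1 had 0.35 and GCLC, a subunit of the glutathione-making ligase, -0.22.

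Aldehydes and ketones are also handled by other enzyme families. ALDH1A3, which oxidizes retinal, stood at 262.5 and 293.9 TPM in control and at 167.2 and 257.8 TPM in CBX7 libraries, with a log2 fold change of -0.31 (standard error 0.15, adjusted p = 0.951, edgeR). ALDH2, the mitochondrial acetaldehyde dehydrogenase, had a log2 fold change of 0.34 (standard error 0.14, adjusted p = 0.951). Of 10 aldehyde dehydrogenases 7 were tested, with a median of -0.0022. Of 12 other carbonyl reductases 11 were tested, with a median of 0.042, and of those averaging at least 50 counts CBR3 (0.21) and DHRS4 (0.19), the second of which has close gene copies, had the largest changes. Of 20 steroid and prostaglandin enzymes 12 were tested, with a median of 0.0087. PTGES had -0.39 (standard error 0.24) and HSD17B10 0.30 (standard error 0.23). PTGS2, or cyclooxygenase-2, was the 1 gene of this list with an unadjusted p under 0.05, at -0.84 (standard error 0.29, adjusted p = 0.941, edgeR), and was named after its values were seen. All 6 enzymes that supply NADPH were tested, with a median of 0.13, and ME1 (0.22) and TALDO1 (0.14) had the largest changes.

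**Figure D5:**
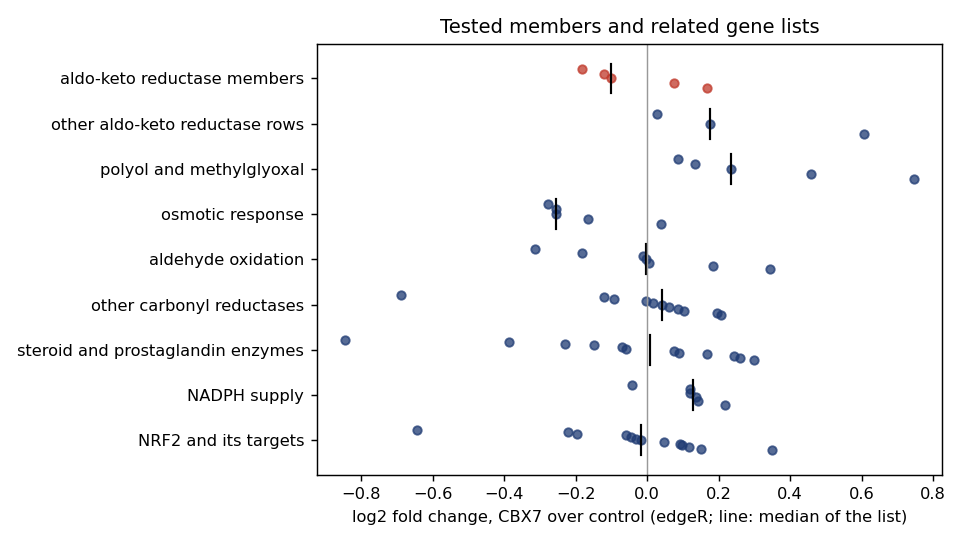
Log2 fold change, CBX7 over control (x axis, edgeR), of each tested gene (1 point per gene) in the family (red) and in 8 related lists (blue), with a line at the median of each list. The polyol and methylglyoxal genes lie to the right of 0 (median 0.23), and the 5 tested aldo-keto reductases lie between -0.18 and 0.17.

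Among 11076 genes averaging 100 counts or more, the 3 whose log2 CPM followed that of AKR1B1 most closely over the 4 libraries were TATDN3, CHMP5 and FIP1L1, each with a Pearson correlation of 0.999. Over 4 libraries 50 genes exceeded 0.99, and the libraries differed in the length trend given above, so this is a description only.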

How the data were processed

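T24 RNA was measured in 2 control and 2 CBX7 libraries. The authors deposited, per gene and library, an expected count that need not be whole and a TPM value, and per gene a length and their own comparison (p-values, adjusted p-values, and fold as a ratio and on the log2 scale), which was not used here. The labels' processing notes name cutadapt 1.9.1, HISAT2 2.0.1, HTSeq 0.6.1, DESeq2 and hg19. Expected counts that are not whole are not what HTSeq writes by default, so the counter and the build behind the table are not settled. The table has no coordinates, and those printed come from GENCODE release 29 (GRCh38) and RefSeq (GRCh38.p14) by identifier or symbol.

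Counts were rounded, filtered with filterByExpr, scaled by TMM and tested with edgeR 4.0.16 (glmQLFit, glmQLFTest, R 4.3.3) with group as its single term. Standard errors are the log2 fold change over the square root of F. Libraries of a group were compared first: chi-square per degree of freedom was 4.54 in control and 37.7 in CBX7, so none was a copy. The alternatives were DESeq2 size factors, upper-quartile scaling, DESeq2 1.42.0, no filter, a minimum of 10 counts per library, the newer quasi-likelihood method, a replicate block, a correction for the trend with listed length, and each library left out. The code was tested on simulated data. Poisson intervals and limits for counts of 0 cover counting error only, and intervals of fold changes come from the edgeR fit and include the estimated spread between libraries.

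The members and gene lists were chosen with earlier results of these data known. Named genes are CBX7, the members, the 2 tested genes of each list with the largest change at a mean of at least 50 counts, any called, NFE2L2, KEAP1, NFAT5 and SORD by role, and the 3 genes most like AKR1B1. Genes outside this rule are marked, or stand as cell markers or as copies that share sequence with a member.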

Additional observations from a re-analysis of the deposited data

How the results depend on the processing

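Of 45 fold changes of the 5 tested members under alternatives that kept all 4 libraries, 41 kept their direction and 4 turned it, and none passed an adjusted p of 0.05 (adjusted p 0.161 to 1.0). The unadjusted p of AKR1B1 was 0.0214 with the length correction and 0.0117 with the replicate block added to it. With the length correction AKR1A1 was -0.058 and AKR1C1 0.015, and with the replicate block and the length correction together they were -0.059 and 0.013. The cause was not tested. Leaving out each library in turn gave log2 fold changes from -0.20 to 0.31 for AKR1A1, -0.30 to 0.070 for AKR1B1, -0.16 to -0.079 for AKR1C1, -0.36 to -0.026 for AKR1C3 and -0.15 to 0.43 for AKR7A2, and 0 to 2 members past an adjusted p of 0.05, the 2 being AKR1A1 and AKR7A2 without CBX7 replicate 2.

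The number of genes past an adjusted p of 0.05 was 3 of 14862 and became 59 under DESeq2's Wald test, 265 without the filter, and 45 to 5491 with a library left out, highest without CBX7 replicate 2. At an unadjusted p of 0.05 the 705 genes became 416 with DESeq2, 1368 with no filter, and 382 to 6647 with a library left out. The estimated prior degrees of freedom were 3.61 on all 4 libraries and infinite with no filter, with the replicate block and in each fit without a library. One gene of the related lists, DCXR, was called with no filter.

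The labels number the libraries of each group 1 and 2 and do not say that a number marks a common batch. The deviations of same-numbered libraries from their group means had a correlation of 0.385 over 14862 genes, and with 2 numbers this leaves the pairing unknown. Under the replicate block 361 genes passed the adjusted and 1511 the unadjusted threshold, 609 and 2063 with the block and the length correction, 0 members passed in either, and DCXR passed (adjusted p = 0.00097, edgeR) with the block. The members' log2 fold changes with the block were 0.055 for AKR1A1, -0.11 for AKR1B1, -0.12 for AKR1C1, -0.19 for AKR1C3 and 0.14 for AKR7A2. CBX7 kept its call under every alternative listed.

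With TPM recomputed from listed lengths, the shares of the family in control cells were 12.6% for AKR1A1, 76.0% for AKR1B1, 0.447% for AKR1C1, 2.58% for AKR1C3 and 8.33% for AKR7A2, and as shares of counts 12.5%, 75.2%, 2.13%, 1.82% and 8.25%. AKR1C1 to AKR1C4 together made up 4.95% of the deposited TPM, and AKR1B10 with AKR1B15 0.0624%. The ratio of the summed level between CBX7 and control cells was 0.886 in TPM and 0.961 in TMM CPM. Depth limits the 5 members with at most 6 counts, for which no difference between groups could be seen.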
